A study of Mus musculus with 11 samples.

Results

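Transcripts of the Notch pathway were examined in mouse hearts 3 days after myocardial infarction (MI), with and without pharmacological inhibition of the sheddase ADAM10. Chosen by their symbols, 10 genes were taken from the 55421 genes of the count table. These were the receptors Notch1, Notch2, Notch3 and Notch4, the ligands Jag1 and Dll4, and the target genes Hes1, Hey1, Hey2 and Heyl. All mice were female C57BL/6J animals, 8 weeks of age. Ligation of the left anterior descending coronary artery caused MI in 8 mice, of which 4 received the hydroxamate GI254023X (A10i, 100 mg/kg) and 4 received its solvent (DMSO). The remaining 3 mice were sham-operated and received DMSO (Sham). The tissue of infarcted mice came from the infarct and border zone, whereas sham mice gave healthy heart tissue, so that MI and the sampled region cannot be told apart. The inhibitor was given to the whole animal, so that a response of 1 cell type cannot be separated from that of others.

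Notch receptors are single-pass membrane proteins that are activated by ligands on a neighbouring cell. Ligand binding exposes a site that ADAM10 cleaves, after which the gamma-secretase complex frees the intracellular domain. This fragment enters the nucleus, binds the DNA-binding protein RBPJ and switches on transcriptional repressors of the HES and HEY families. In the heart the pathway is best known from vessels, where Notch1, Notch4 and Dll4 are typical of endothelium and Notch3 of pericytes and smooth muscle cells. Counts of RNA report the level of receptor transcripts, not their cleavage, while the transcripts of target genes lie downstream of it.

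RBPJ recognises a short word in DNA, and the promoters of the genes were searched for GTGGGAA on both strands. RefSeq promoters (GRCm38.p6, 250 bases before to 50 bases after the start) were matched for 7 of the 10 genes, and Hes1, Hey1 and Heyl had no entry in the table used. The promoter of Hey2 is shown because it was the only one of these 7 that held the word, and it held it at 2 places. It lies on the minus strand at chr10:30842734-30843033, and capitals mark the matches.
Hey2: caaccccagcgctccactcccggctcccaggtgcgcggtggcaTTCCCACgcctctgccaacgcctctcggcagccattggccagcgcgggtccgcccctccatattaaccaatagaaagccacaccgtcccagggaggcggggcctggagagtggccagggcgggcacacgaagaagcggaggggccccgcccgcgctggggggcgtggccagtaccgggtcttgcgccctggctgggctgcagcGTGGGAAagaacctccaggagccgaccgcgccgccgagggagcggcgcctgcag
The first match reads on the opposite strand from base -207 to -201 relative to the start, and the second reads on the strand of the gene from -4 to 3, with their first bases 203 apart. Of 32851 mouse promoters of the same length, 6.38% held GTGGGAA at least once and 0.256% at least at 2 places. The shorter word TGGGAA, which is contained in GTGGGAA, occurred in 25.6% of promoters, and among the 7 it was again found in Hey2 alone. The promoter of Notch3, the receptor whose transcript differed most from sham, is shown for comparison and has none of these letters in a row. It lies on the minus strand at chr17:32166841-32167140.
Notch3: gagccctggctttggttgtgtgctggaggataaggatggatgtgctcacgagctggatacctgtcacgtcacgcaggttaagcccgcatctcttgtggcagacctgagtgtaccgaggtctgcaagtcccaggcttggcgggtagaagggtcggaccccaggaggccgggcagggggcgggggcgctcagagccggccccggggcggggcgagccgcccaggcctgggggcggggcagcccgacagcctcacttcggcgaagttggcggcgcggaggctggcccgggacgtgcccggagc
A match of letters is a description and not a measured binding site.

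All 10 genes were expressed in every heart, with 85 to 2360 counts per gene and mouse, and all passed the filter on low counts in each comparison. Levels between genes were compared per length, as counts divided by the gene length and by the library total (RPKM), where totals were scaled with the trimmed mean of M-values (TMM). In sham hearts Notch3 (8.52 ± 0.166, SD, n = 3) and Notch4 (8.51 ± 0.473) were the leading receptors. In RPKM, Hes1 followed in sham mice with 8.12 ± 0.687 and overlapped with Notch4 across mice. Dll4, the endothelial ligand that guides sprouting, had 7.05 ± 0.253 RPKM, above Heyl (4.84 ± 0.202) and Notch1 (4.53 ± 0.143), which overlapped with each other. Hey1 (3.83 ± 0.603) and Jag1 (3.81 ± 0.389) could not be ordered either. Notch2 reached 3.18 ± 0.246 and Hey2 1.38 ± 0.133 RPKM, the lowest level of the 10.

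After MI, Hes1 headed the order in both groups. It had 13.1 ± 2.26 RPKM in DMSO mice and 9.94 ± 0.826 RPKM in A10i mice (n = 4 each), and in neither group did it overlap with the next gene, Notch4. Dll4, Notch3 and Heyl came next in both groups, and Dll4 overlapped with Notch3 in each of them. Hey2 stayed last, with 0.957 ± 0.238 RPKM in DMSO mice and 1.27 ± 0.236 RPKM in A10i mice.

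**Figure D1:**
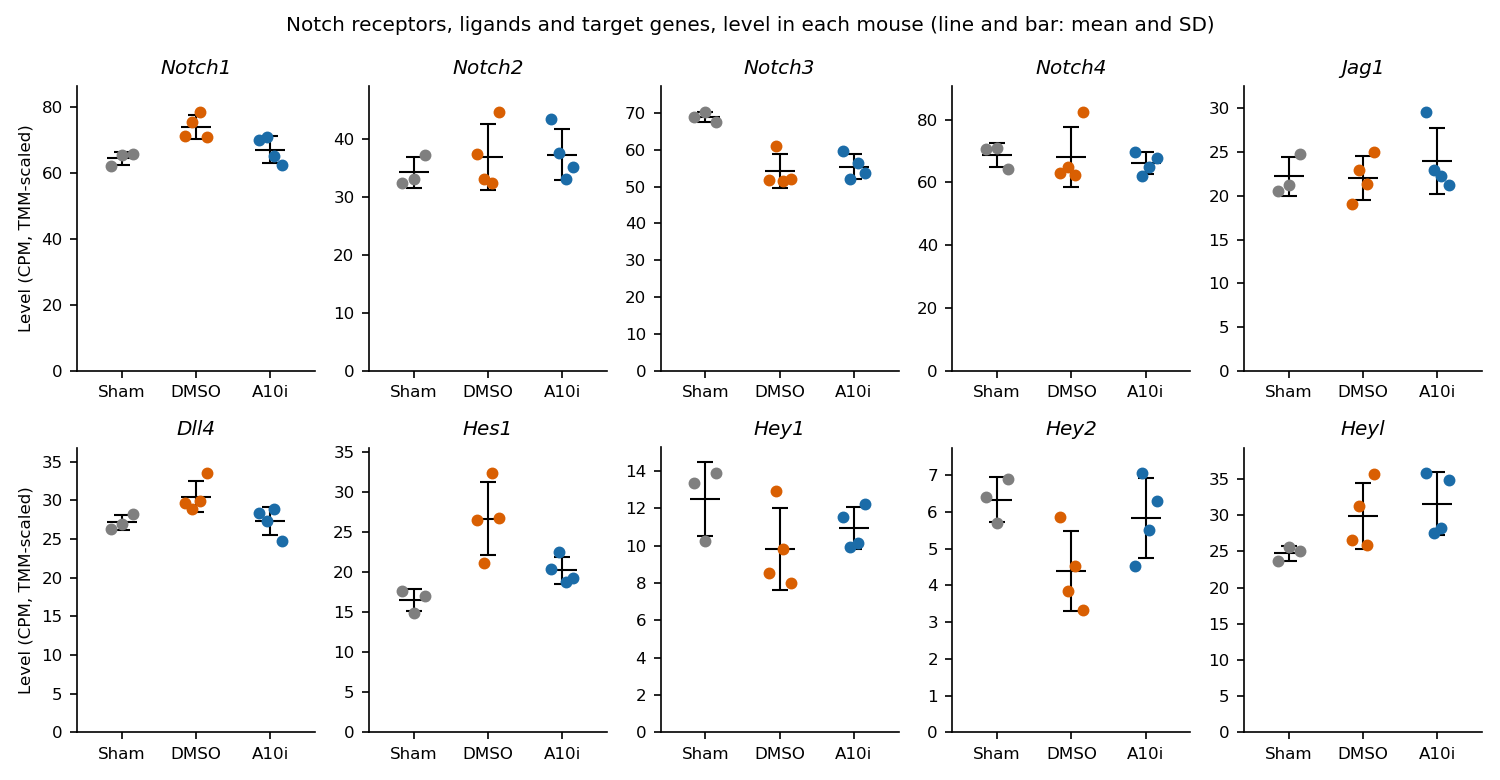
Level of the 10 genes in each mouse, as the count divided by the TMM-scaled library total (CPM, y axis from 0), by group (x axis). Each point is 1 mouse and the line and bar are the mean and SD of 3 sham, 4 DMSO and 4 A10i mice. Hes1 lies higher in all 4 DMSO mice than in any sham or, with 1 exception, A10i mouse, and Notch3 lies lower in all 8 infarcted mice than in the 3 sham mice.

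The first comparison asked which of these transcripts differ 3 days after MI. Between DMSO and Sham mice, Hes1 rose and Notch3 fell, while 8 of the 10 genes did not pass the threshold of an adjusted p under 0.01 (edgeR, adjusted over 17117 genes). The single call in each direction compares with 12.9% of all genes called higher and 9.6% called lower, 22.5% in all, so that 2 of 10 is near the share over all genes. The median log2 fold change of the 10 genes was 0.05, and that of all genes 0.0021. Over all genes, 2215 were higher and 1643 lower, and the split shifted to 3330 higher and 708 lower when libraries were scaled by their totals alone.

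Hes1 (ENSMUSG00000022528, chr16:30064384-30067796, plus strand, GRCm38) encodes a repressor that is a direct target of several Notch receptors and that other signals also induce. In CPM, the count over the TMM-scaled library total without the length, sham mice had 17.6, 15 and 17. DMSO mice had 26.5 (A105), 21.1 (A127), 32.4 (A128) and 26.8 (A129). The groups did not overlap, and A128 was the highest and A127 the lowest infarcted mouse of this group. The rise was 1.61-fold (log2 fold change 0.69, SE 0.14, adjusted p = 0.00422, edgeR). The call held in 9 of 9 other settings, and it was lost when any sham mouse was left out (adjusted p = 0.0163 without S1, 0.0265 without S2 and 0.0193 without S3), with log2 fold changes of 0.58 to 0.79 over all omissions.

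Notch3 (ENSMUSG00000038146, chr17:32120820-32166852, minus strand, GRCm38) encodes the receptor of vascular smooth muscle cells and pericytes. Its level was 68.8, 70.3 and 67.6 CPM in sham mice. In DMSO mice it was 51.8 (A105), 61.1 (A127), 51.6 (A128) and 52.0 (A129). Every DMSO mouse was below every sham mouse, and A127 stood above the other DMSO mice. Notch3 fell by 0.35 on the log2 scale (SE 0.08, adjusted p = 0.00735, edgeR). The call was lost without S1, S2, S3, A105, A128 or A129, with adjusted p-values up to 0.0371, and its direction held throughout, from -0.41 to -0.33. With libraries scaled by their totals alone, which moved the median of all genes to 0.21, the Notch3 value was -0.14 (adjusted p = 0.252). Its exons share 488 bases with Gm17276 on the opposite strand, which had 32 to 86 counts per library beside 1191 to 1878 for Notch3.

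Notch1 and Dll4 were slightly higher in DMSO than in sham mice but did not pass the test. Notch1 had 62.1 to 65.9 CPM in sham mice and 71.3, 75.5, 78.5 and 70.8 CPM in DMSO mice. Its log2 fold change was 0.20 (SE 0.072, adjusted p = 0.0540, edgeR), and with libraries scaled by their totals alone it was 0.40 (adjusted p = 0.00458). Dll4 had 26.3 to 28.2 CPM in sham and 28.9 to 33.5 CPM in DMSO mice, a log2 fold change of 0.16 (adjusted p = 0.141, edgeR). For both genes the groups did not overlap. In total, 4 of the 10 genes lay higher without overlap (Notch1, Dll4, Hes1 and Heyl) and 1 lower (Notch3), against 25.1% and 23.6% of all genes.

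The other receptors and Jag1, the ligand shared by endothelial and smooth muscle cells, showed no difference beyond their spread. Notch2, a receptor of many cell types, had a log2 fold change of 0.10 (95% interval -0.21 to 0.41). Notch4 had -0.01 (-0.29 to 0.27) and Jag1 -0.01 (-0.30 to 0.28), and scaling by library totals alone turned both to 0.20. DMSO mouse A129 had the highest values of its group for Notch2 (44.7 CPM), Notch4 (82.4 CPM) and Jag1 (25.0 CPM), and without it Notch2 was -0.0012.

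None of the 3 HEY genes, which encode repressors related to HES1, passed the test. Hey1 and Hey2 are arterial and endocardial regulators, and Hey2 is also a gene of ventricular muscle. Hey2 had 6.41, 5.69 and 6.90 CPM in sham and 5.86, 3.86, 4.53 and 3.34 CPM in DMSO mice, and only A105 overlapped with the sham range. Its log2 fold change was -0.53 (SE 0.195, adjusted p = 0.0527, edgeR). Hey1 had -0.35 (95% interval -0.80 to 0.11, adjusted p = 0.142), with 10.3 to 13.9 CPM in sham and 8.01 to 12.9 CPM in DMSO mice. Heyl, a target of Notch3 in mural cells, had 23.6 to 25.6 CPM in sham and 25.9 to 35.7 CPM in DMSO mice, a log2 fold change of 0.27 (SE 0.119, adjusted p = 0.0998). Of the 10 genes, 5 had an unadjusted p under 0.05 (Notch1, Notch3, Hes1, Hey2 and Heyl), compared with 49.3% of all genes.

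**Figure D2:**
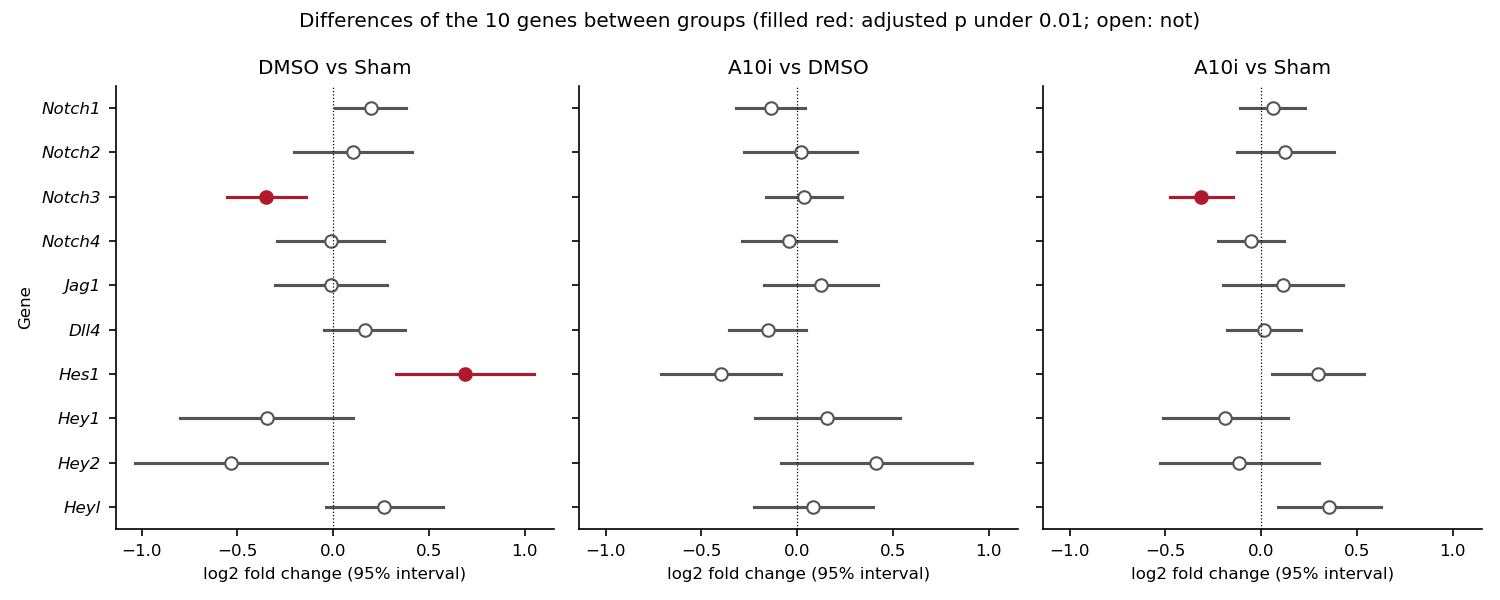
Log2 fold change (x axis) of the 10 genes (y axis) in the 3 comparisons, with 95% intervals computed from the edgeR log2 fold change and its SE. Filled red points passed an adjusted p under 0.01: Hes1 (0.69) and Notch3 (-0.35) in DMSO against Sham and Notch3 (-0.31) in A10i against Sham. No gene passed in A10i against DMSO, and comparisons share groups of mice.

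The second comparison asked whether these transcripts differ with ADAM10 inhibition after MI. No gene of the 10 passed the threshold between A10i and DMSO mice by edgeR, DESeq2 or limma-voom. Here edgeR called 0% of 16792 genes higher, 0% lower and 0% in either direction, so that its result for the 10 could not be otherwise. DESeq2 called 104 genes higher and 123 lower in all, so that the 0% holds for this edgeR setting and not for each tool or setting. By edgeR, the smallest adjusted p of all genes was 0.0479. Of the 10 genes, 1 had an unadjusted p under 0.05 by each of the 3 tools, compared with 13.8% of all genes by edgeR. None of the 10 was free of overlap between the groups, whereas 4.01% of all genes were higher and 4.11% lower without overlap.

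That gene was Hes1. A10i mice had 20.4 (A116), 22.6 (A117), 18.8 (A119) and 19.3 CPM (A120), compared with 26.5, 21.1, 32.4 and 26.8 CPM in DMSO mice. Apart from A117, which exceeded DMSO mouse A127, all A10i mice were below all DMSO mice. The log2 fold change was -0.40 (SE 0.127, 95% interval -0.71 to -0.09), with an unadjusted p of 0.0105 and an adjusted p of 0.216 (edgeR). It ranged from -0.50 to -0.29 when each mouse was left out in turn, with adjusted p-values from 0.0825 to 0.465. The same 4 DMSO mice serve in the comparison with Sham, so that the rise over sham and this value are not independent.

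Among the other target genes, Hey2 had 4.52, 7.04, 5.49 and 6.30 CPM in A10i mice, a log2 fold change of 0.41 (95% interval -0.08 to 0.91, adjusted p = 0.409). Hey1 had a log2 fold change of 0.16 (-0.22 to 0.53) and Heyl 0.09 (-0.23 to 0.40). All 3 intervals include 0, and that of Hey2 was the widest of the 10 genes.

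The receptors and ligands were narrower in their intervals. Notch1 had 69.9, 70.9, 65.2 and 62.4 CPM in A10i mice and a log2 fold change of -0.14 (95% interval -0.32 to 0.04, adjusted p = 0.443). Dll4 had 28.3, 27.4, 29.0 and 24.7 CPM and -0.15 (-0.35 to 0.05, adjusted p = 0.447). Each overlapped with the DMSO group by 1 A10i mouse. Notch2 (0.02, -0.28 to 0.31), Notch3 (0.03, -0.16 to 0.23), Notch4 (-0.04, -0.29 to 0.20) and Jag1 (0.12, -0.18 to 0.42) lay close to 0. For Notch2 and Notch4 the sign turned when single mice were left out.

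The third comparison set A10i mice against Sham, and it shares its mice with both others. Notch3 fell by 0.31 on the log2 scale (SE 0.065, adjusted p = 0.00417, edgeR), with 59.6, 52.0, 56.3 and 53.6 CPM in A10i mice. This was 1 of 10 genes called, where 13.7% of 16971 genes were called higher, 9.11% lower and 22.9% in either direction. The call was lost without S1 (adjusted p = 0.0211), S2 (0.0246), S3 (0.0170) or A120 (0.0135). It was also lost with scaling by library totals alone, with a Notch3 value of -0.12 (adjusted p = 0.261) beside a median of 0.18 over all genes.

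Hes1 and Heyl were higher than in sham mice without overlap but did not pass 0.01. The log2 fold change of Hes1 was 0.30 (SE 0.094, adjusted p = 0.0295) and that of Heyl 0.36 (SE 0.104, adjusted p = 0.0213). Heyl passed without A10i mouse A117 (adjusted p = 0.00928), without the filter on low counts (0.00372) and with library totals alone (0.00823), and Hes1 with library totals alone (0.00515). These 2 genes and Notch3 compare with 24.8% of all genes higher and 23.5% lower without overlap. The same 3 genes had an unadjusted p under 0.05, compared with 48.3% of all genes. The other 7 log2 fold changes lay between -0.19 (Hey1) and 0.13 (Notch2), and scaling by library totals alone turned Notch4 to 0.14, Hey1 to 0.0037 and Hey2 to 0.07.

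The mix of receptor transcripts changed in share. Notch3 made up 34.4% ± 0.179 (SD, n = 3) of the summed RPKM of the 4 receptors in sham mice. It made up 28.2% ± 2.69 in DMSO mice and 29.5% ± 0.940 in A10i mice (n = 4 each), and no infarcted mouse reached the sham range of 34.2 to 34.5%. Notch1 went from 18.3% in sham to 22% in DMSO and 20.3% in A10i mice. The shares of Notch4 (34.4, 35.5 and 35.3%) and Notch2 (12.9, 14.4 and 14.9%) overlapped between the groups. The summed RPKM of the receptors was 24.7 ± 0.383 in sham mice, 23.8 ± 1.46 with DMSO and 23.2 ± 1.16 with A10i. These shares are a description with no test, and they do not depend on how libraries are scaled, but they do depend on the gene lengths used.

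Among the 4 target genes, Hes1 held 44.7% ± 1.26 of the summed RPKM in sham mice, 56.9% ± 6.25 with DMSO and 47.9% ± 3.59 with A10i. All 4 DMSO mice were above the sham mice, from 48.7 to 63.7%, and A10i mice ranged from 44.2 to 52.7%. Hey1 held 21.0, 13.3 and 16.2% and Hey2 7.58, 4.20 and 6.14% in sham, DMSO and A10i mice. For both genes all infarcted mice were below the sham range.

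**Figure D3:**
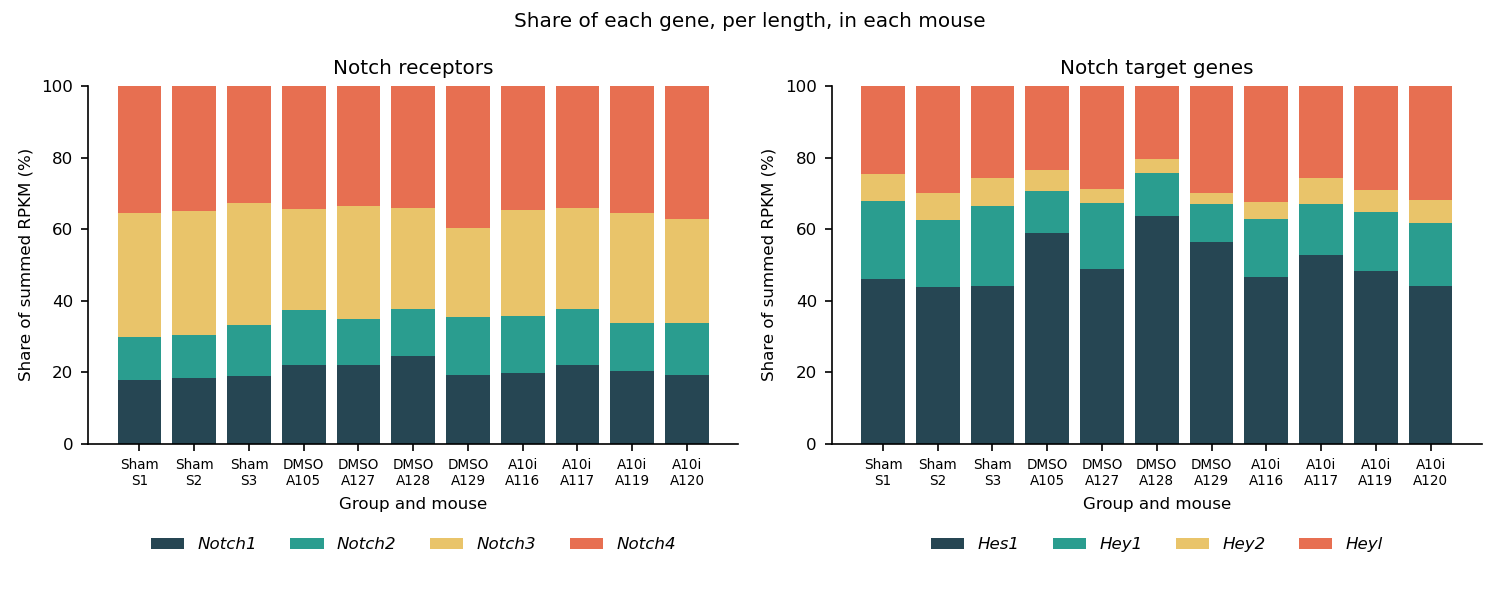
Share of each receptor (left) and target gene (right) in the summed RPKM of its class (y axis, percent) in each of 11 mice (x axis). Notch3 held 34.4% of the receptors in sham mice and 28.2 and 29.5% in DMSO and A10i mice, and Hes1 held 44.7, 56.9 and 47.9% of the target genes.

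The tissue check fitted heart muscle in every library, with Myh6, the main myosin of the adult mouse ventricle, at 13587 CPM or more. The summed level of 8 cardiomyocyte markers was 83289 to 85065 CPM in sham mice, 37368 to 54464 with DMSO and 47280 to 65258 with A10i. Atrial markers (4 genes) summed to 104.9 to 227.5, 475 to 1672 and 519 to 971 CPM, macrophage markers (6 genes) to 194 to 210, 286 to 453 and 383 to 633, and endocardial markers (3 genes) to 67.5 to 76.7, 77.2 to 100.5 and 91.6 to 103.3 in the same order. Fibroblast markers (8 genes) reached 931 to 976, 1321 to 4023 and 3148 to 5969 CPM. Neutrophil markers (6 genes), with 1.68 to 2.99 CPM in sham mice, did not overlap between DMSO (73.4 to 139) and A10i mice (13.1 to 48.0). In DMSO against Sham, 5 of the 8 cardiomyocyte markers were called lower. Called higher were 3 of 8 fibroblast, 4 of 6 macrophage, 6 of 6 neutrophil, 1 of 4 atrial and 1 of 3 endocardial markers. Of all genes, 12.9% were called higher and 9.6% lower. The atrial sum was mostly Nppa, with means of 149.4 of 164.7 CPM in sham, 1039 of 1083 in DMSO and 718 of 785 in A10i mice. Nppa was the atrial marker called, and Myl4, Myl7 and Sln did not pass. Plvap (log2 fold change 2.03) was the endocardial marker called, while Nfatc1 (0.28) and Npr3 (-0.55) did not pass. In A10i against Sham, 2 of the 3 endocardial markers were called higher and 1 lower, beside 13.7% and 9.11% of all genes. The part of these cell types in the values of the 10 genes was not tested.

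Markers of mural cells, in which Notch3 is typically expressed, moved in both directions after MI. Summed over 9 mural markers, the level was 1576 to 1702 CPM in sham mice, 934 to 1165 with DMSO and 1198 to 1301 with A10i. Of the 9, 1 was called higher and 3 lower in DMSO against Sham, beside 12.9% and 9.6% of all genes. The median log2 fold change of the 9 was -0.12. In A10i against Sham, 2 were called higher and 3 lower, beside 13.7% and 9.11% of all genes. The sum rests mostly on Rgs5 and Abcc9, with means of 709.8 and 570.4 CPM of 1656 CPM in sham mice. Whether Abcc9 RNA came from mural cells alone or also from heart muscle was not tested, so that the sum and the ratios to it need not follow mural cells. In DMSO against Sham, Rgs5 (-0.95), Abcc9 (-1.05) and Kcnj8 (-0.87) were called lower by edgeR, whereas the smooth muscle gene Tagln (1.12) was called higher. The contractile genes Cnn1 (1.03) and Acta2 (0.35) did not pass, and Cspg4, Pdgfrb and Myh11 lay between -0.15 and 0.08. Of these, all but Rgs5 and Abcc9 were named after their values were seen. No marker of the list was at 0 in any library. In bulk tissue, fewer cells of a type and less RNA per cell cannot be told apart. The log2 ratio of Notch3 to the summed mural markers was -4.62 to -4.54 in sham mice, -4.41 to -4.17 with DMSO and -4.65 to -4.34 with A10i, higher in DMSO than in sham mice and overlapping with sham in A10i mice. Heyl relative to the same markers was higher in all infarcted mice, at -6.16 to -5.98 in sham mice, -5.41 to -4.71 with DMSO and -5.56 to -5.08 with A10i.

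Endothelial markers (10 genes) summed to 1280 to 1323 CPM in sham mice, 1069 to 1196 with DMSO and 1206 to 1310 with A10i. Between DMSO and Sham, 0 of the 10 were called higher and 3 lower, beside 12.9% and 9.6% of all genes. The median of the 10 was -0.26, and the abundant Cdh5 and Pecam1 had -0.22 and 0.04. Relative to this sum, Dll4 was set apart in DMSO mice, with log2 ratios of -5.29 to -5.16, from sham (-5.63 to -5.55) and A10i mice (-5.61 to -5.48). The ratio of Notch1 also did not overlap between DMSO and the other groups, with -4.08 to -3.87 in DMSO, -4.39 to -4.29 in sham and -4.33 to -4.18 in A10i mice. The other 3 genes paired with this list overlapped between all groups. Notch4 was at -4.36 to -4.17 in sham, -4.23 to -3.86 in DMSO and -4.38 to -4.15 in A10i hearts. Jag1 ranged from -5.98 to -5.42 and Hey1 from -7.22 to -6.41 over all mice, and the mean of Hey1 was lower in DMSO (-6.87) than in sham mice (-6.71). Arterial markers (6 genes) summed to 98.8 to 106 CPM in sham mice, 115 to 135 with DMSO and 111 to 141 with A10i. Of these 6, 1 was called higher in each infarcted group against Sham, beside 12.9% (DMSO) and 13.7% (A10i) of all genes. Relative to the cardiomyocyte markers, Hey2 was at -13.87 to -13.59 in sham mice, -13.69 to -13.18 with DMSO and -13.54 to -13.02 with A10i. These ratios are descriptions with no test, since the genes and lists were paired with other results known.

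**Figure D4:**
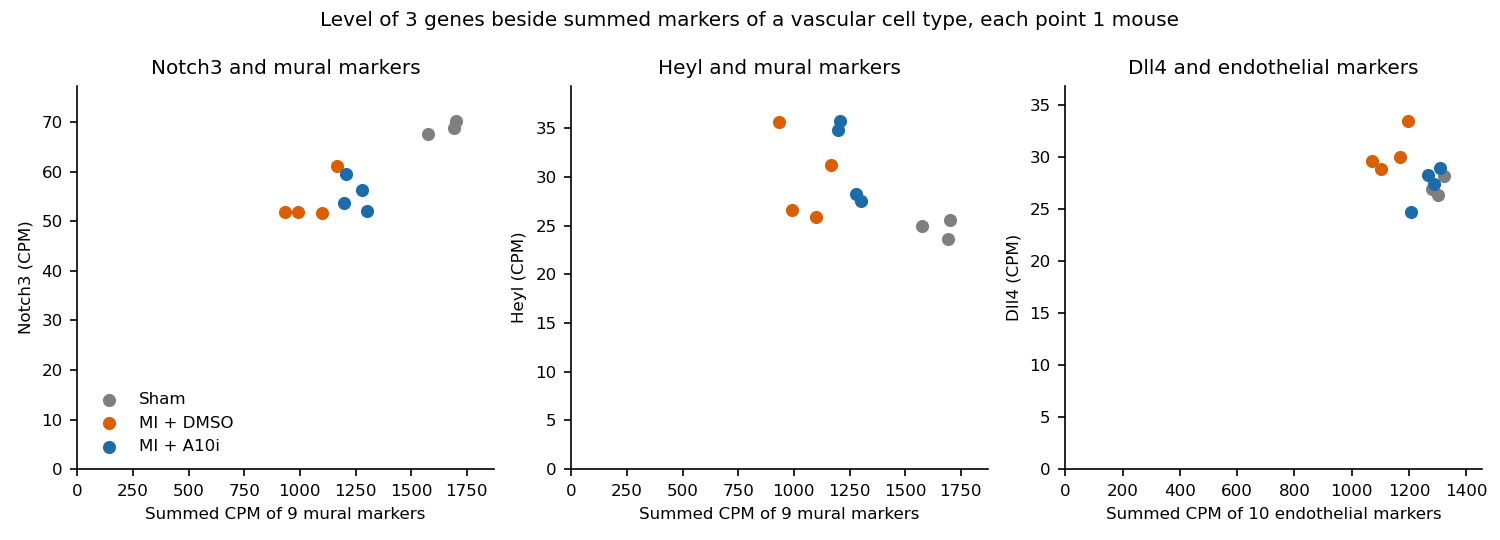
Level of Notch3, Heyl and Dll4 (y axes, CPM from 0) beside the summed level of 9 mural or 10 endothelial markers (x axes, CPM from 0), each point 1 mouse. Sham mice combine the highest mural sums (1576 to 1702 CPM, mostly Rgs5 and Abcc9) with the highest Notch3, while Heyl is not lower in infarcted mice. DMSO mice have the lowest endothelial sums and mostly the highest Dll4.

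The rest of the pathway was read from a list of 47 genes, of which 41 passed the filter on low counts. Dll3, Dlk1, Dlk2, Dner, Hes5 and Hes7 did not, with at most 24 counts in any library. Between DMSO and Sham mice edgeR called 3 of the 41 higher and 3 lower, beside 12.9% and 9.6% of all genes, and the median log2 fold change of the 41 was 0.02. The 6 of 41 do not exceed the 22.5% of all genes called in either direction.

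In the group of 12 genes of endocytosis and turnover, 4 were called, beside 22.5% of all genes. Dtx4, a ubiquitin ligase of the Deltex family, rose from 6.05 to 6.96 CPM in sham to 11 to 19 CPM in DMSO mice (log2 fold change 1.11, SE 0.185, adjusted p = 0.00166). Numbl, a relative of the Notch inhibitor Numb, rose by 0.94 (SE 0.163, adjusted p = 0.00199), from 7.41 to 9.08 CPM in sham to 13.1 to 20.3 CPM in DMSO mice. Mib2, a ubiquitin ligase that promotes endocytosis of ligands, fell by 0.41 (SE 0.074, adjusted p = 0.00254). Fbxw7, which marks the intracellular domain for degradation, fell by 0.45 (SE 0.101, adjusted p = 0.00707). For each of these 4 genes the groups did not overlap, which also held for 25.1% of all genes higher and 23.6% lower. Scaling by library totals alone called 9 of the 41 higher and 0 lower, beside 3330 and 708 over all genes. DESeq2 called 5 and 5, given here without its share of all genes, so that no more change than by edgeR can be read from it. Leaving out single mice called 1 to 3 higher and 0 to 3 lower, beside 922 to 2288 and 565 to 1763 over all genes.

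In the proteolysis group of 10 genes, Psen2, a catalytic subunit of gamma-secretase, rose by 0.44 on the log2 scale (SE 0.096, adjusted p = 0.00563), from 11.1 to 12.0 CPM in sham to 15.3 to 17.6 CPM in DMSO mice. Adam10, the target of the inhibitor, had 54.6 to 59.3 CPM in sham mice, 56.9 to 93.2 with DMSO and 67.6 to 91.0 with A10i. Its log2 fold change was 0.30 in DMSO against Sham (adjusted p = 0.164), 0.09 in A10i against DMSO (0.853) and 0.39 in A10i against Sham (0.0142). The related sheddase Adam17 had -0.04 (0.789), 0.16 (0.552) and 0.13 (0.290). Neither passed the threshold in any comparison by edgeR with TMM and the filter on low counts. In A10i against Sham, Adam10 passed by DESeq2 (adjusted p = 0.00547). It also passed by edgeR without the filter on low counts (0.00106) and with library totals alone (0.00848), so that its call depends on the setting.

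In the nuclear group, Spen, a co-repressor that binds RBPJ, fell from 72.5 to 75.9 CPM in sham to 51.6 to 57.4 CPM in DMSO mice (log2 fold change -0.44, SE 0.071, adjusted p = 0.00137). Rbpj itself had 23.9 to 25.1 CPM in sham and 27.1 to 35.9 CPM in DMSO mice. Its log2 fold change of 0.34 did not pass by edgeR with TMM (adjusted p = 0.0354) and passed by edgeR with library totals alone (0.00782). Nrarp, a feedback inhibitor and direct Notch target, had 8.94 to 12.0 CPM in sham mice, 13.6 to 20.4 with DMSO and 12.7 to 18.7 with A10i. By edgeR with TMM and the filter, its log2 fold change of 0.58 in DMSO against Sham did not pass (adjusted p = 0.0226). Nor did 0.51 in A10i against Sham (0.0359), although in both the groups did not overlap. The value against Sham in DMSO mice passed by DESeq2 (adjusted p = 0.00832) and by edgeR without the filter on low counts (0.00571). Between A10i and DMSO it was -0.07 (0.885).

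Against Sham, edgeR called 2 of the 41 higher and 2 lower in A10i mice, beside 13.7% and 9.11% of all genes. DESeq2 called 3 and 3, given here without its share of all genes, so that no more change than by edgeR can be read from it. Dtx4 had a log2 fold change of 1.12 (adjusted p = 0.000470), Numbl 0.77 (0.00373), Spen -0.49 (0.00193) and Mib2 -0.35 (0.00438). Between A10i and DMSO mice edgeR called 0 of the 41 and 0% of all genes. Of the 41, 5 had an unadjusted p under 0.05, beside 13.8% of all genes, and the median log2 fold change of the 41 was 0.05.

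DESeq2 called 1 of the 41 between A10i and DMSO, beside 104 genes higher and 123 lower in all. This was Dtx1, which was named after its values were seen. Dtx1 is a Deltex ubiquitin ligase known as a Notch target in lymphocytes. It had 0.675, 0.637, 0.732 and 0.746 CPM in DMSO mice and 1.47, 2.48, 1.86 and 1.57 CPM in A10i mice, with 0.766 to 1.17 CPM in sham mice. The groups did not overlap, and the values rest on 16 to 64 counts per library. The log2 fold change was 1.40 by both tools, with an adjusted p of 0.000652 by DESeq2 and 0.0707 by edgeR.

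**Figure D5:**
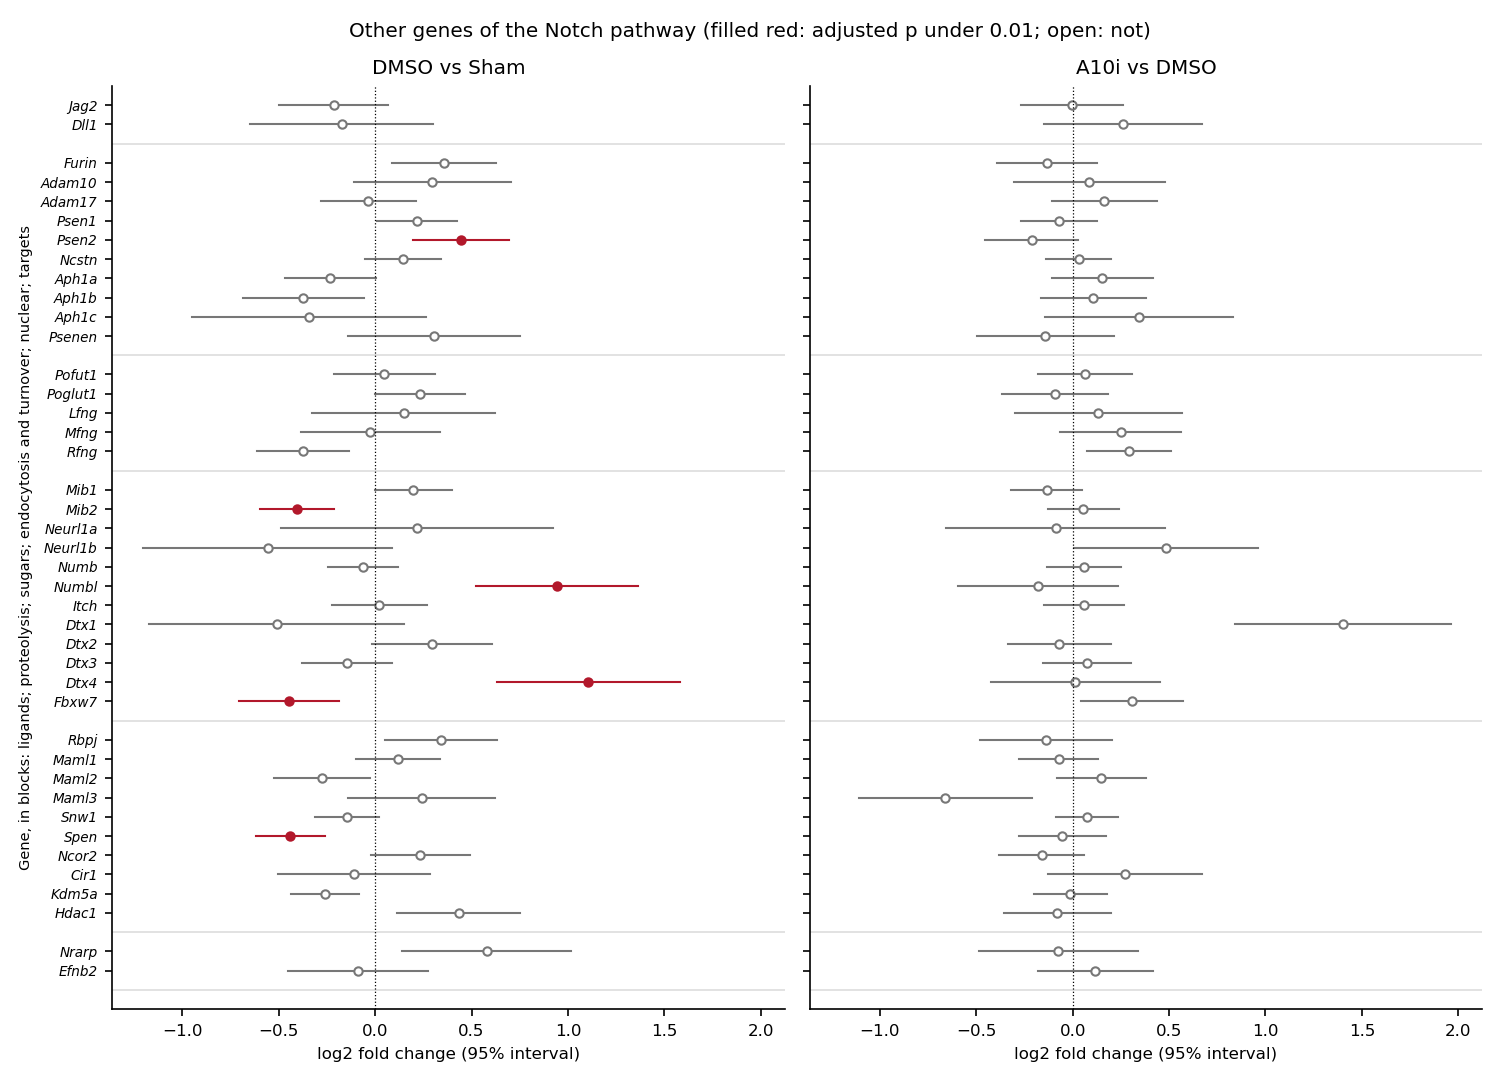
Log2 fold change with 95% interval (x axis) of the 41 other pathway genes that passed the filter (y axis, in blocks by role), for DMSO against Sham (left) and A10i against DMSO (right). Filled red points passed an adjusted p under 0.01 by edgeR: 3 higher and 3 lower on the left and 0 on the right, where Dtx1 (1.40) lies farthest from 0.

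The genes with the most similar pattern over the 11 libraries were found by the root-mean-square difference of centred log2 CPM among 17480 genes. For the receptors these were Dxo and Cic (Notch1), Sf3b3 and Smarce1-ps1 (Notch2), Dlg1 and Btbd7 (Notch3) and Klhl18 and Avl9 (Notch4). For the ligands they were Wdr81 and Tgds (Jag1) and Cdk7 (Dll4). For the target genes they were Pak6 and Vwa5a (Hes1), Ctns and Gm4609 (Hey1), Gm47155 and Grip2 (Hey2) and Tmem208 and Cdk2 (Heyl). The difference of the nearest gene ranged from 0.0523 (Notch1) to 0.120 (Hey1), where the median over all genes was 0.287 to 0.418. With the 8 infarcted mice alone, 1 of the 20 neighbours was found again (Avl9 for Notch4), so that these names depend on the libraries used.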

How the data were processed

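Strand-specific poly(A) RNA libraries of 11 mouse hearts were sequenced as read pairs. Per the labels and the study's methods, the authors used bcl2fastq 2.20.0, mapped to mm10 by GSNAP 2020-12-16, and took counts of unique alignments on Ensembl genes by featureCounts 2.0.1. The deposited values are raw counts, with the gene length, and were not normalized. The strand setting of the counting is not given in the sources used here. Exons of Dll4, Notch1, Notch2 and Notch3 overlap other annotated genes, of which the most counted, Gm17276 at Notch3, had 32 to 86 counts. Totals per library were 21702623 to 29511768 over 55421 genes. The table also held 92 spike-in rows with 397 counts in all, which were left out.

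Groups came from the sample labels. Replicates differed by more than counting error (chi-square per degree of freedom 4.04 to 60.8, 15 pairs), so that none was a repeat deposit. Each pair of groups was compared on its own libraries with edgeR 4.0.16 in R 4.3.3: filterByExpr, TMM, robust quasi-likelihood F-test, two-sided, Benjamini-Hochberg adjustment over all genes tested, threshold 0.01. SE is the log2 fold change over the square root of F. The 95% intervals take this SE with a t distribution on the residual degrees of freedom alone, without the prior degrees of freedom of the F-test. An interval can thus include 0 at an unadjusted p under 0.05, as for Heyl in DMSO against Sham. CPM and RPKM used TMM-scaled totals. Each library was labelled as 1 mouse, and p-values measure the spread between these mice. DESeq2 1.42.0, limma-voom (limma 3.58.1), other scalings and filters, a joint fit, a threshold of 0.05 and leaving out each mouse were alternatives. On simulated counts, edgeR called 92 of 100 genes changed 2-fold in the DMSO and Sham design. It called 77 in A10i and DMSO and 95 in A10i and Sham. False calls among unchanged genes were 4, 6 and 7 by edgeR and 22, 16 and 16 by DESeq2. The designs held 17117, 16792 and 16971 genes, each with 100 further genes at a log2 change of 2. In A10i and DMSO edgeR called 98 of these, whereas the real comparison gave 0 calls. Changed genes were drawn from the more abundant genes, so that these rates cover no gene as low as Dtx1. They are not the power in the real data.

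The genes, the lists and their pairing were chosen with earlier results of these data known. Named were the 10 genes, up to 4 higher and 4 lower pathway genes called per comparison, Adam10, Adam17, Rbpj and Nrarp, the 2 most abundant genes of a marker list, and the 2 genes nearest in pattern, of which 1 is not reported here. Dtx1 and the further mural, atrial and endocardial markers were added after their values were seen.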

Additional observations from a re-analysis of the deposited data

Results flagged for a closer look

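Of 20 groups of 4 mice tested for a mouse far from the others (10 genes, 2 groups), 2 had one, where chance gives about 1 in 20. Notch3 in DMSO mouse A127 was 61.1 CPM, while the next was 52.0 and the lowest 51.6 CPM, a gap of 0.967 of the range. Notch4 in DMSO mouse A129 was 82.4 CPM, while the next was 64.8 and the lowest 62.3 CPM, a gap of 0.874 of the range. Without A127, Notch3 was called lower against Sham (log2 fold change -0.41, adjusted p = 0.00316, edgeR), and without A129 Notch4 was -0.12 against Sham (adjusted p = 0.216).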

How the results depend on the processing

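No paired analysis was possible because the groups share no replicate numbers. Relative to a threshold of 0.01 with edgeR, counts of calls over all genes and lists moved with the tool, the scaling and the mice used, and the cause was not tested. Scaling by library totals alone gave 2 of the 10 genes higher and 0 lower against Sham for both DMSO and A10i mice, 9 and 7 other pathway genes higher and 0 lower, and over all genes 3330 higher and 708 lower for DMSO and 577 lower for A10i mice. DESeq2 gave 5 pathway genes higher and 5 lower for DMSO against Sham, where its share of all genes is not given. For A10i against DMSO it gave 1 pathway gene higher, and 104 genes higher and 123 lower in all. Upper-quartile scaling gave 5 pathway genes lower for DMSO against Sham, also without its share of all genes. For A10i against DMSO, no filter on low counts gave 18 genes higher and 25 lower, and a joint fit of 11 libraries 2 and 9. For A10i against Sham these gave 1 of the 10 genes higher and 932 genes lower, respectively. An adjusted p under 0.05 gave 7 pathway genes higher and 7 lower (3687 and 3145 genes) for DMSO against Sham, 3 genes higher and 9 lower for A10i against DMSO, and 2 of the 10 genes higher, 8 and 5 pathway genes and 3687 and 2984 genes for A10i against Sham.

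Leaving out each mouse gave, for DMSO against Sham, 0 to 1 of the 10 genes higher and 0 to 1 lower, 1 to 3 and 0 to 3 pathway genes, and 922 to 2288 and 565 to 1763 genes in all. For A10i against Sham it gave 0 to 1 and 0 to 1, 1 to 3 and 0 to 3, and 1062 to 2544 and 543 to 1821. For A10i against DMSO it gave 0 of the 10 and of the pathway genes and 0 to 1 genes each way. Neighbours in pattern shared 1 of 20 names with those of the 8 infarcted libraries.

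Signs turned for uncalled values between -0.19 and 0.10. Library totals alone turned Notch4 (0.20) and Jag1 (0.20) in DMSO against Sham and Notch4 (0.14), Hey1 (0.0037) and Hey2 (0.068) in A10i against Sham. A minimum of 10 counts turned Jag1 in DMSO against Sham (0.0012), and upper-quartile scaling turned Dll4 in A10i against Sham (-5.7e-05). Leaving out a mouse gave -0.12 to 0.030 for Notch4, -0.074 to 0.072 for Jag1 and -0.0012 to 0.17 for Notch2 in DMSO against Sham, -0.059 to 0.12 for Notch2 and -0.079 to 0.062 for Notch4 in A10i against DMSO, and -0.012 to 0.061 for Dll4 in A10i against Sham. With 3 or 4 mice in a group and levels as low as 85 counts for Hey2, differences below the intervals given cannot be resolved.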
